A study of Mus musculus with 10 samples.

Results

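The 10 genes described here encode the muscle isoforms of actin (Acta1, Acta2, Actc1 and Actg2) and the proteins that work with them in the contractile apparatus of smooth muscle and of the peritubular cells of the testis (Myl9, Cnn1, Tagln, Myh11, Tpm1 and Tpm2). They were taken by name, as every array feature whose gene symbol is among the 10, which gave 24 of the 62976 features and 10 of the 20863 genes named on the array; all 10 were among the 16726 genes tested. Their levels were measured in cultured mouse cells on 10 one-colour Agilent arrays. Induced embryonic Sertoli-like cells (ieSCs) are fibroblasts turned towards Sertoli cells, the supporting cells of the testis tubule, by transgenes for Nr5a1, Wt1, Dmrt1, Gata4 and Sox9. Of the arrays, 4 were of ieSCs whose source was mouse embryonic fibroblasts (MEFs), 4 of ieSCs from tail tip fibroblasts (TTFs) of females, and 2 of MEFs with none of these factor transgenes. All 3 groups came from a congenic strain homozygous for R26-M2rtTA, the transactivator that responds to doxycycline. The ieSCs had been without doxycycline for 2 weeks and the MEFs had been cultured for 2 weeks, in 20% oxygen and 5% carbon dioxide.

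The labels number the ieSCs of each origin 1 and 2, called preparations here, and give 2 arrays (a and b) to each preparation and to the MEFs, which makes 5 names. Nothing in the labels says that arrays sharing a name came from separate cultures, so the spread that the p-values measure may be partly technical. The control is 2 arrays of a single name. Unconverted TTFs were not analysed here, so the TTF-derived ieSCs differ from the control in starting cell as well as in transgenes.

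Muscle actins polymerise into thin filaments, on which smooth muscle myosin, built from the heavy chain Myh11 and the regulatory light chain Myl9, pulls. Tropomyosins lie along the filament, and calponin (Cnn1) and transgelin (Tagln) bind it. Acta2, the alpha smooth muscle actin, is the usual marker of peritubular myoid cells in the testis and of activated fibroblasts in culture, whereas Acta1 and Actc1 are the actins of skeletal and cardiac muscle. Many of these genes are targets of serum response factor (SRF), which binds a sequence called the CArG box and works with the coactivators myocardin and the myocardin-related factors Mrtfa and Mrtfb.

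The RefSeq promoter table (GRCm38.p6) held 7 of the 10 genes. The 250 bases before the annotated start were searched on both strands for the CArG box, either exact or with 1 mismatch in its middle 6 bases, for TATAAA, and for CATTCC, the MCAT element. An exact match was also counted by the search that allows a mismatch. Of these 7 promoters, 3 held an exact CArG box and 4 a box with at most 1 mismatch, against 1.47% and 8.59% of the 32851 promoters of the same length. CATTCC was found in 3 of the 7 and in 12.6% of all promoters, and TATAAA in 1 of the 7 and in 12.4% of all. The 4 promoters with a match are printed to show where the boxes lie, and that of Tpm1 as the gene that differed least between ieSCs and MEFs, with no CArG box found in this window. Capitals mark TATAAA and the CArG boxes with at most 1 mismatch.
Acta2 (chr19:34255374-34255623, minus strand): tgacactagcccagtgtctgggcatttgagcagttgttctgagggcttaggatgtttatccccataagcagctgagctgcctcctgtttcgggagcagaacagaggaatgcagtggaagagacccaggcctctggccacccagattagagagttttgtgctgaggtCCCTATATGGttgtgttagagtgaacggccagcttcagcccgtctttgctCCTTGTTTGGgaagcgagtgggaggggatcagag
Acta1 (chr8:123894776-123895025, minus strand): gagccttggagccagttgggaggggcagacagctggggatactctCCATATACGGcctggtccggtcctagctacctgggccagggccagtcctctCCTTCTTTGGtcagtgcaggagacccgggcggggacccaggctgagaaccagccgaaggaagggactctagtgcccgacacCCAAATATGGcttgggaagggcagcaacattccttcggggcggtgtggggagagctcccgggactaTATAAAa
Actc1 (chr2:114052876-114053125, minus strand): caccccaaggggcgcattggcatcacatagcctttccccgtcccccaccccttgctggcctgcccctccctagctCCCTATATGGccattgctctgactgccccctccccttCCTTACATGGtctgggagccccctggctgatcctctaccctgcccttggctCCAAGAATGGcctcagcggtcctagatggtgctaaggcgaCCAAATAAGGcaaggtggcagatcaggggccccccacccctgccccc
Myl9 (chr2:156775214-156775463, plus strand): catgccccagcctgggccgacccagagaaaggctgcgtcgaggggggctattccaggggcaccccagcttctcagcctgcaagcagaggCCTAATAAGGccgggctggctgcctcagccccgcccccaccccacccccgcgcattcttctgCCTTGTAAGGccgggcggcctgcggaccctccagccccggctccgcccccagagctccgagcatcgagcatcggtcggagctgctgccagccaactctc
Tpm1 (chr9:67049214-67049463, minus strand): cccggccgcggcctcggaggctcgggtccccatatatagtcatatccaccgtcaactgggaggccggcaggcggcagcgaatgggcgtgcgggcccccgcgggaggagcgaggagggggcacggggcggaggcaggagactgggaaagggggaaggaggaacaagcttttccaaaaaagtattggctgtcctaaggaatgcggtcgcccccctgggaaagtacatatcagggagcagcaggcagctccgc

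The exact boxes were CCAAATATGG at -73 to -64 from the start of Acta1, CCAAATAAGG at -47 to -38 of Actc1 and CCTAATAAGG at -161 to -152 of Myl9. In Acta2 the matches with 1 mismatch were CCCTATATGG at -84 to -75 and CCTTGTTTGG at -34 to -25. The promoters of Cnn1 and Tpm2 held none of the 3 motifs in this window. These are matches of letters and not measured binding sites.

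Over all features the Pearson correlation was 0.9896 to 0.9966 within a name, 0.9878 to 0.9896 between preparations of an origin, and 0.926 to 0.9408 between a MEF and an ieSC array. Of 10 Sertoli markers, Dhh, Wt1, Gdnf, Kitl and Sox8 were higher in ieSCs, Sox9 and Gata4 were lower, and Amh, Fshr and Nr0b1 did not pass the filter on dim features. In this comparison 23.6% of all genes tested fell and 25.9% rose at a limma adjusted p under 0.05. Markers of other cells moved with the comparison too. Over 8 fibroblast markers the mean log2 level was 15.84 to 15.85 on the MEF arrays, 9.21 to 9.75 on the MEF-derived and 10.40 to 10.85 on the TTF-derived ieSC arrays, and 7 of the 8 fell, led by Thy1, Fap, Pdgfra and Col1a2. All 8 macrophage markers fell as well, led by Laptm5, Fcer1g, C1qa and Adgre1, with a mean level of 11.32 to 11.34 in MEFs and 6.17 to 6.59 in ieSCs. Fap, Laptm5 and C1qa passed the filter only through the MEF arrays, and of the others 6 of 7 fibroblast and 6 of 6 macrophage markers fell. Of 7 epithelial and mesothelial markers tested, 5 rose, led by Dsp, Msln, Upk3b and Cldn3, and 1 fell, while Cdh1 and Epcam did not pass the filter. The part of these cells in the results below was not tested. In bulk RNA, fewer cells that express a gene and less of its RNA per cell cannot be told apart.

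The muscle and smooth muscle genes were lower in ieSCs than in MEFs. They were chosen with earlier results of these data known, so the counts describe these genes and do not test the choice. Of the 10 genes, 9 fell and 0 rose at a limma adjusted p under 0.05, where 23.6% of all genes tested fell and 25.9% rose, and the median log2 difference was -2.94, against 0.09 over all genes. On all 8 ieSC arrays 9 of the 10 genes lay below both MEF arrays, as did 25.0% of all genes. The exception in both counts was Tpm1. Actc1 and Myh11 passed the filter only through the MEF arrays, and of the other 8 genes 7 fell (median -2.61). Acta2 has 10 of the 24 features, all annotated to the same transcript and all lower, so a count by feature leans on this gene. Counted by feature, 19 of 24 fell and 0 rose, against 20.0% and 24.6% of all features tested. Averaging the 2 arrays of each name cut this to 11 of 24 features, against 14.0% of all, with 2 of the 10 features of Acta2 (adjusted p = 0.0414 to 0.0894) and 1 of the 5 of Tpm1 among them. With the same averages, which leave the control 1 value, 8 of the 10 genes fell, against 16.5% of all genes, and Acta1 no longer passed (adjusted p = 0.0657).

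**Figure D1:**
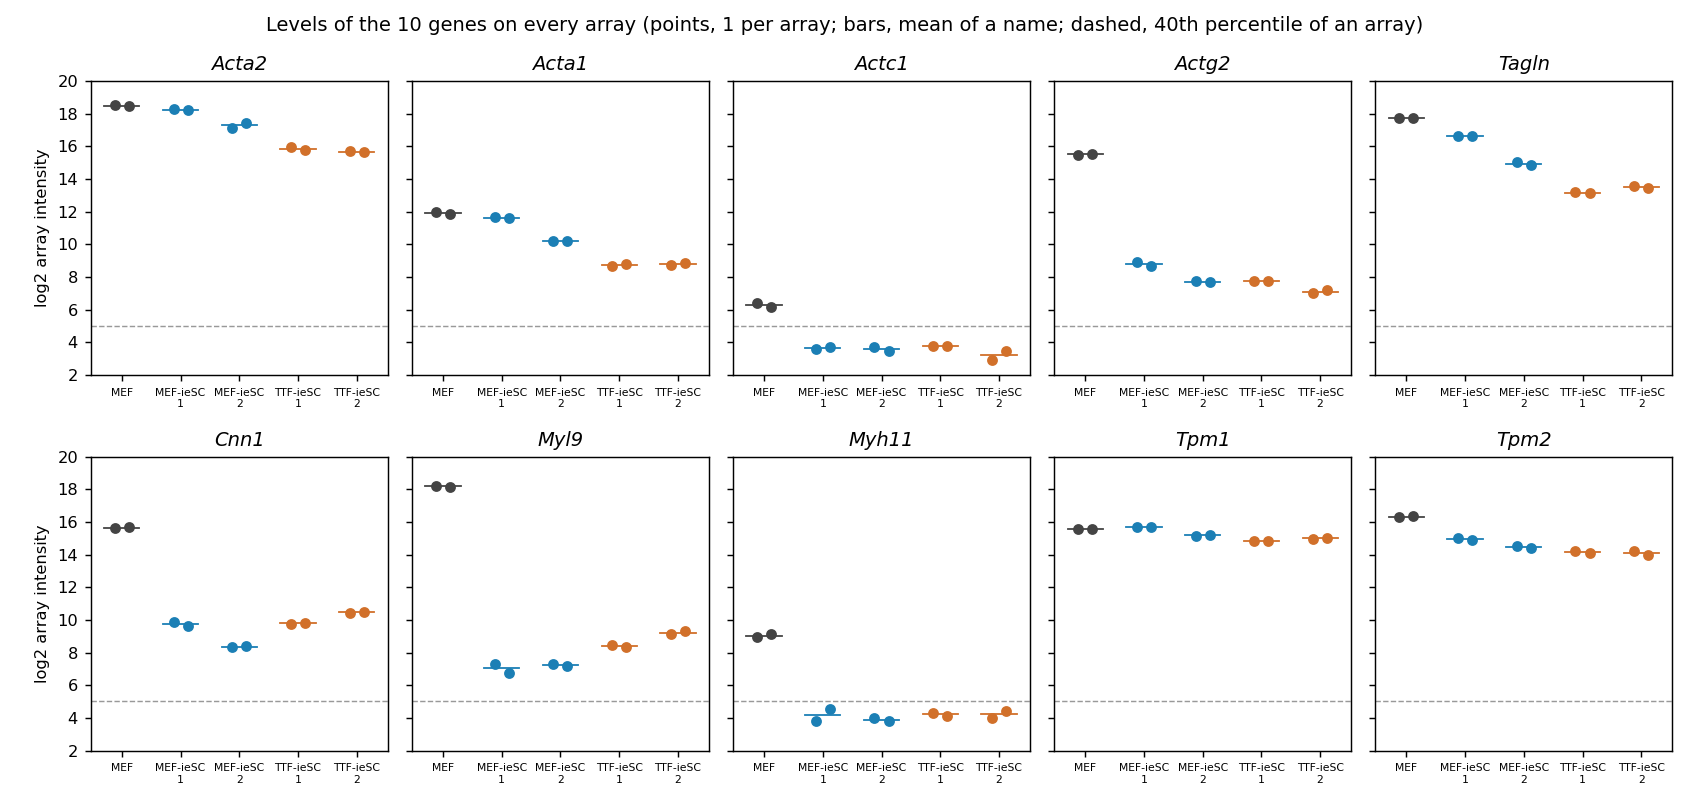
Log2 array intensity (vertical axis) of the 10 genes for the 5 names on the horizontal axis; each point is 1 array, each short bar the mean of a name, and the dashed line the highest 40th percentile of an array, 5.02. Actg2, Cnn1, Myl9, Myh11 and Actc1 drop in every ieSC preparation, whereas Acta2, Acta1 and Tagln step down from MEF to MEF-derived to TTF-derived ieSCs.

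The differences were of 3 kinds, a description made after the values were seen. Actg2, Myl9, Cnn1, Myh11 and Actc1 were far lower in every ieSC preparation, down to the dim end of the arrays for the last 2. Acta2, Acta1 and Tagln stayed closest to the MEF level in MEF-derived preparation 1 and were lowest in the TTF-derived cells. Tpm2 differed from MEFs by -2.24 to -1.35 in the 4 preparations, and Tpm1 differed little.

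Among the actins, Acta2 stayed near the top of the intensity range in all cells. On the feature that represents it, Acta2 stood at 18.55 and 18.45 on the MEF arrays, at 18.28 and 18.22 in MEF-derived preparation 1, at 17.13 and 17.45 in preparation 2, at 15.96 and 15.77 in TTF-derived preparation 1 and at 15.71 and 15.63 in preparation 2. Preparation 1 of the MEF-derived cells thus lay just under the MEFs, and on this feature the groups did not overlap. The difference of all ieSCs from MEFs was -1.73 ± 0.31 (SE; fold change 3.32, adjusted p = 0.00119). All 10 features of Acta2 are annotated to the same transcript, and the sources used here do not say whether they repeat 1 probe. Their differences between ieSCs and MEFs lay between -1.85 and -1.67, those of MEF-derived ieSCs between -0.84 and -0.61 and those of TTF-derived ieSCs between -2.86 and -2.63, so the 10 features gave the same order of groups. On some of them MEF-derived preparation 1 overlapped the MEFs, as at 18.09 and 18.23 against 18.27 and 17.92. The highest value on any array was 19.02, and the part of the scanner's upper limit in the small step at the bright end was not tested.

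Acta1, the skeletal muscle actin, followed the same order on its single feature. It stood at 11.96 and 11.84 in MEFs, at 11.68 and 11.60 in MEF-derived preparation 1, at 10.23 on both arrays of preparation 2, and between 8.64 and 8.85 on the 4 TTF-derived arrays. The arrays of the 3 groups did not overlap, and Acta1 fell by 2.05 ± 0.38 (fold change 4.15, adjusted p = 0.00169). Actg2, the gamma smooth muscle actin, behaved differently, with 15.49 and 15.56 in MEFs against 7.66 to 8.91 on the MEF-derived and 6.99 to 7.75 on the TTF-derived arrays. The 2 ieSC groups overlapped, and both lay far under the MEFs: Actg2 fell by 7.69 ± 0.36 (206-fold lower, adjusted p = 1.91e-07). Actc1, the cardiac actin, was dim throughout. Its MEF values of 6.42 and 6.13 were 1.26 above the 40th percentile on average, and its ieSC values of 2.90 to 3.77 were all below it. It fell by 2.73 ± 0.31 (adjusted p = 6.6e-05), a value that the floor of the arrays limits.

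**Figure D2:**
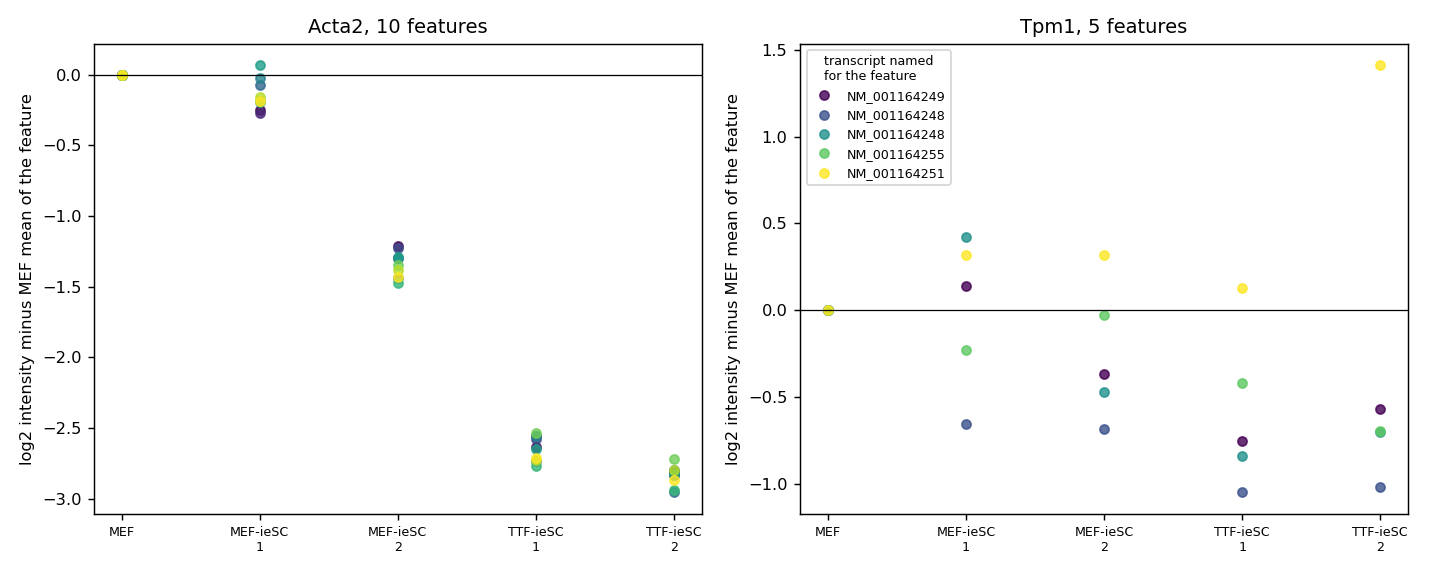
Mean log2 intensity of each name minus the MEF mean of the same feature (vertical axis) for the 10 features of Acta2 and the 5 features of Tpm1, 1 colour per feature and 1 point per name. The Acta2 features lie together, near 0 in MEF-derived preparation 1 and lower in the other preparations. The Tpm1 features lie on both sides of 0, with the feature annotated to NM_001164251 highest in TTF-derived preparation 2.

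The actin-binding proteins also divided. Tagln, or SM22, stood at 17.72 and 17.71 in MEFs, at 16.61 and 16.64 in MEF-derived preparation 1, at 15.02 and 14.87 in preparation 2, at 13.19 and 13.13 in TTF-derived preparation 1 and at 13.54 and 13.46 in preparation 2. It was lower in each ieSC group without overlap, and over all ieSCs it fell by 3.16 ± 0.46 (fold change 8.92, adjusted p = 0.000353). Cnn1, calponin of differentiated smooth muscle, stood at 15.65 and 15.67 in MEFs, at 9.87 and 9.62 in MEF-derived preparation 1 and at 8.36 and 8.39 in preparation 2. In the TTF-derived cells it stood at 9.76 and 9.82 in preparation 1 and at 10.41 and 10.51 in preparation 2. The ieSC groups overlapped, and Cnn1 fell by 6.07 ± 0.42 (67.0-fold lower, adjusted p = 2.32e-06).

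The regulatory light chain gene Myl9 had the largest difference of the 10. It stood at 18.20 and 18.16 in MEFs and at 6.78 to 7.30 on the MEF-derived arrays, and at 8.45 and 8.33 in TTF-derived preparation 1 and 9.12 and 9.33 in preparation 2. It fell by 10.2 ± 0.32 (1180-fold lower, adjusted p = 2.1e-08). The ieSC values still lay above the 40th percentile on all 8 arrays, and TTF-derived cells held more than MEF-derived cells without overlap. Myh11, the smooth muscle myosin heavy chain, reached the dim end as Actc1 did. It stood at 8.95 and 9.13 in MEFs, 4.03 above the 40th percentile on average, and at 3.81 to 4.53 on the MEF-derived and 4.01 to 4.42 on the TTF-derived arrays, all below that percentile. It fell by 4.92 ± 0.34 (adjusted p = 2.16e-06), a value that the floor of the arrays limits.

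The tropomyosins differed from each other in how far they moved. Tpm2 stood at 16.29 and 16.35 in MEFs, at 14.43 to 15.02 on the MEF-derived and at 13.97 to 14.25 on the TTF-derived arrays, 3 groups without overlap. It fell by 1.89 ± 0.19 (fold change 3.71, adjusted p = 3.38e-05), and its second feature gave -1.87. Tpm1, on the feature that represents it, stood at 15.58 and 15.55 in MEFs, at 15.69 and 15.72 in MEF-derived preparation 1, at 15.17 and 15.22 in preparation 2 and at 14.81 to 15.01 on the TTF-derived arrays. MEF-derived preparation 1 lay above the MEFs and the other 3 preparations below them. The difference was -0.39 ± 0.17 and did not pass (adjusted p = 0.0794), and it was -0.52 (adjusted p = 0.00408) without MEF-derived preparation 1. Tpm1 makes many transcripts by alternative splicing, and its 5 features, annotated to 4 of them, gave differences from -0.85 to 0.54, of which 0 passed with the 10 arrays and 1 with averaged arrays (adjusted p = 0.0136). The feature annotated to NM_001164251 stood at 11.23 and 11.33 in TTF-derived preparation 2 and at 9.79 to 10.21 on the other 8 arrays. Of the 2 features annotated to NM_001164248, 1 read 12.56 and 14.38 on the arrays of MEF-derived preparation 1, a gap of 1.82 within a name, and the other read 13.92 and 13.94.

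Set against MEFs origin by origin, ieSCs of MEF origin, the starting cell also used as control, had 7 of 10 genes lower and 0 higher (24.0% and 27.2% of all genes). The other 3 were Acta2, at -0.73 ± 0.33 (adjusted p = 0.0981), Acta1, at -0.96 ± 0.42 (adjusted p = 0.0846), and Tpm1, at -0.12 ± 0.18 (adjusted p = 0.632). Without MEF-derived preparation 1 all 3 passed, at -1.21 for Acta2 (adjusted p = 0.00234), -1.67 for Acta1 (adjusted p = 5.27e-05) and -0.37 for Tpm1 (adjusted p = 0.038). Without MEF-derived preparation 2 they did not, at -0.25 for Acta2 (adjusted p = 0.241), -0.26 for Acta1 (adjusted p = 0.18) and 0.14 for Tpm1. Tagln fell by 1.93 ± 0.50 (adjusted p = 0.01), and it was -1.09 without preparation 2, and it was not called when arrays sharing a name were averaged (adjusted p = 0.128). Myl9, Actg2, Cnn1 and Myh11 fell in these cells, with differences of -11.04, -7.27, -6.6 and -5.01. In TTF-derived ieSCs all 10 genes fell and 0 rose (21.8% and 23.3% of all genes), from Myl9 at -9.37 ± 0.35 to Tpm1 at -0.66 ± 0.18. Acta2 fell by 2.73 ± 0.33, Acta1 fell by 3.14 ± 0.42 and Tagln fell by 4.38 ± 0.50 there. The Tpm1 call of TTF-derived cells (adjusted p = 0.0145) was lost without TTF-derived preparation 1 (adjusted p = 0.0623), with averaged arrays (adjusted p = 0.151) and with the mean of the features of a gene (adjusted p = 0.0949). Both origins were set against the same MEF arrays.

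**Figure D3:**
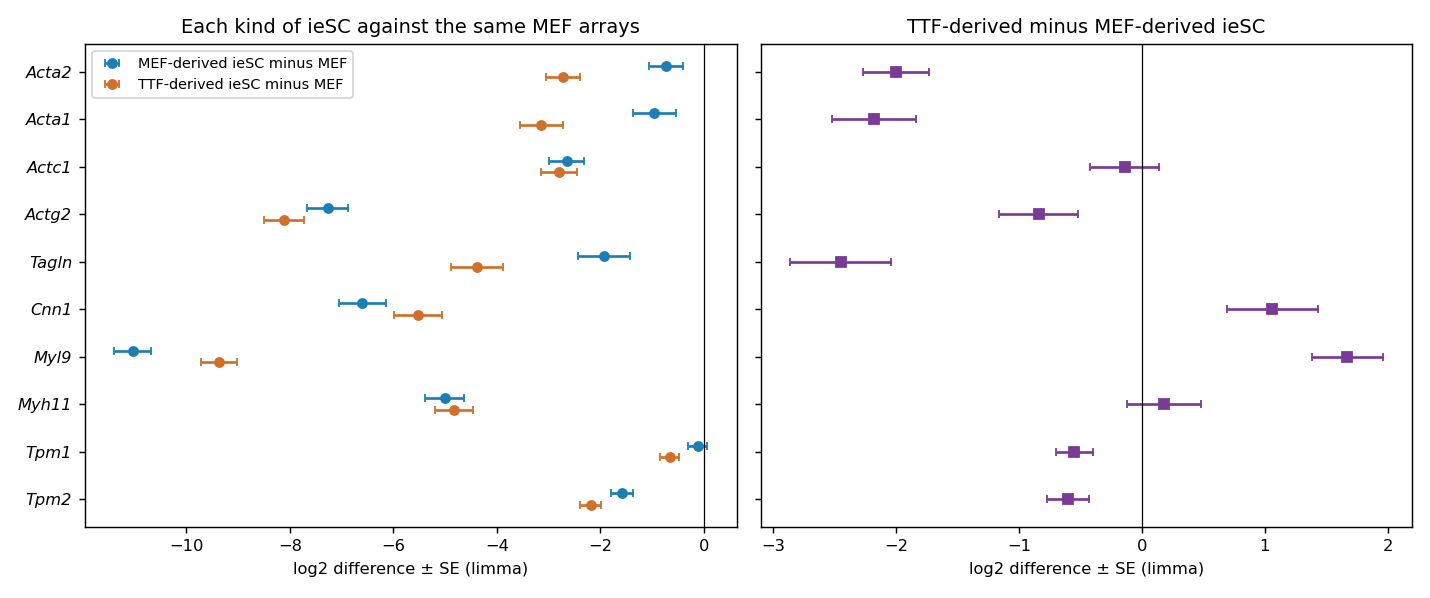
Log2 differences ± SE from the limma fit for the 10 genes: left, each kind of ieSC minus the same 2 MEF arrays; right, TTF-derived minus MEF-derived ieSCs. Acta2, Acta1 and Tagln lie at -2.45 to -2.0 in TTF-derived minus MEF-derived cells, and Myl9 lies 1.67 higher.

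Compared directly, TTF-derived ieSCs had 5 of the 10 genes lower than MEF-derived ieSCs and 1 higher (19.2% and 16.8% of all genes). Tagln differed by -2.45 ± 0.41 (adjusted p = 0.00146), Acta1 by -2.18 ± 0.34 (adjusted p = 0.00105) and Acta2 by -2.0 ± 0.27 (adjusted p = 0.000457). Tpm2 and Tpm1 differed by -0.60 ± 0.17 and -0.55 ± 0.15. Myl9 was the gene that went the other way, at 1.67 ± 0.29 (adjusted p = 0.00172). Cnn1 was higher by 1.06 ± 0.37 and did not pass (adjusted p = 0.0521), but it did without MEF-derived preparation 1 (1.75, adjusted p = 0.00153), without its array a alone (1.20, adjusted p = 0.0309) and without TTF-derived preparation 1 (1.40, adjusted p = 0.0481). Cnn1 was 0.38 without MEF-derived preparation 2 (adjusted p = 0.3). Actg2, at -0.84 ± 0.32, did not pass (adjusted p = 0.07), but it did without MEF-derived preparation 2 (-1.38, adjusted p = 0.00534) or without TTF-derived preparation 1 (-1.17, adjusted p = 0.0444), and it was -0.30 without MEF-derived preparation 1 (adjusted p = 0.402) and -0.52 without TTF-derived preparation 2 (adjusted p = 0.34). Without MEF-derived preparation 1, 3 genes were lower and 2 higher, with no share of all genes computed for that fit, and Tagln was -1.61 (adjusted p = 0.000331). Tpm2 and Tpm1 lost their calls without MEF-derived preparation 1, at -0.36 (adjusted p = 0.107) and -0.29 (adjusted p = 0.0819). Tpm2 did not pass without TTF-derived preparation 2 (adjusted p = 0.0634), and Tpm1 did not without TTF-derived preparation 1 (adjusted p = 0.0945) or with the mean of its features (-0.33, adjusted p = 0.153). Myh11 and Actc1, dim in all ieSCs, differed by 0.18 ± 0.30 and -0.14 ± 0.28. With averaged arrays, leaving 2 values per origin, Acta2 was the gene of the 10 that was called lower (adjusted p = 0.0455), where 7.31% of all genes were, and the adjusted p was 0.0507 for Myl9, 0.0702 for Acta1, 0.0783 for Tagln, 0.133 for Tpm2 and 0.177 for Tpm1.

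The preparations of an origin were compared by their levels alone, since each is a single name. The gap between preparations 2 and 1 of the MEF-derived cells was -1.68 for Tagln, -1.40 for Acta1, -1.37 for Cnn1, -1.08 for Actg2 and -0.96 for Acta2. Within a name the arrays of these 5 genes lay at most 0.32 apart, and over all genes the median absolute gap between these preparations was 0.166. Preparation 2 was lower by more than 1 for 2.73% of all genes. Tpm1 and Tpm2 were lower by 0.51 and 0.49 in preparation 2, and Myl9 was 0.20 higher, less than its gap of 0.51 within a name. In the TTF-derived cells the order was mixed: preparation 2 was higher for Myl9 (0.84), Cnn1 (0.67), Tagln (0.35) and Tpm1 (0.19), and lower for Actg2 (-0.65), Actc1 (-0.56, within the 0.58 between arrays of a name) and Acta2 (-0.19). Acta1, Tpm2 and Myh11 differed by 0.09, -0.09 and 0.00 between the TTF-derived preparations.

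Relatives of these genes that serve non-muscle cells were measured beside them. They were 15 other actin, myosin, tropomyosin, calponin and transgelin genes, not all of them confined to non-muscle cells. Of these 3 rose and 5 fell in ieSCs, and 7 did not pass (median log2 difference -0.08, against 0.09 over all genes). These shares were near the 25.9% and 23.6% of all genes that rose and fell. The cytoplasmic actins Actb and Actg1 differed by 0.03 ± 0.14 and -0.08 ± 0.24. Cnn2 and Cnn3, the other calponins, fell (-1.89 ± 0.23 and -0.72 ± 0.25), while Tagln2 rose by 0.70 ± 0.17. Among the myosin heavy chains Myh14 rose by 4.57 ± 0.17, from 7.14 in MEFs to 11.69 and 11.73 in ieSCs of MEF and TTF origin, Myh10 fell by 1.29 ± 0.13 and Myh9 differed by 0.36 ± 0.26. Of the light chains, Myl12b, a regulatory chain of non-muscle myosin, rose by 1.14 ± 0.12 and the essential chain gene Myl6 fell by 0.92 ± 0.11. The tropomyosin genes Tpm3 and Tpm4 differed by -0.44 ± 0.19 and -0.12 ± 0.13 and did not pass.

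**Figure D4:**
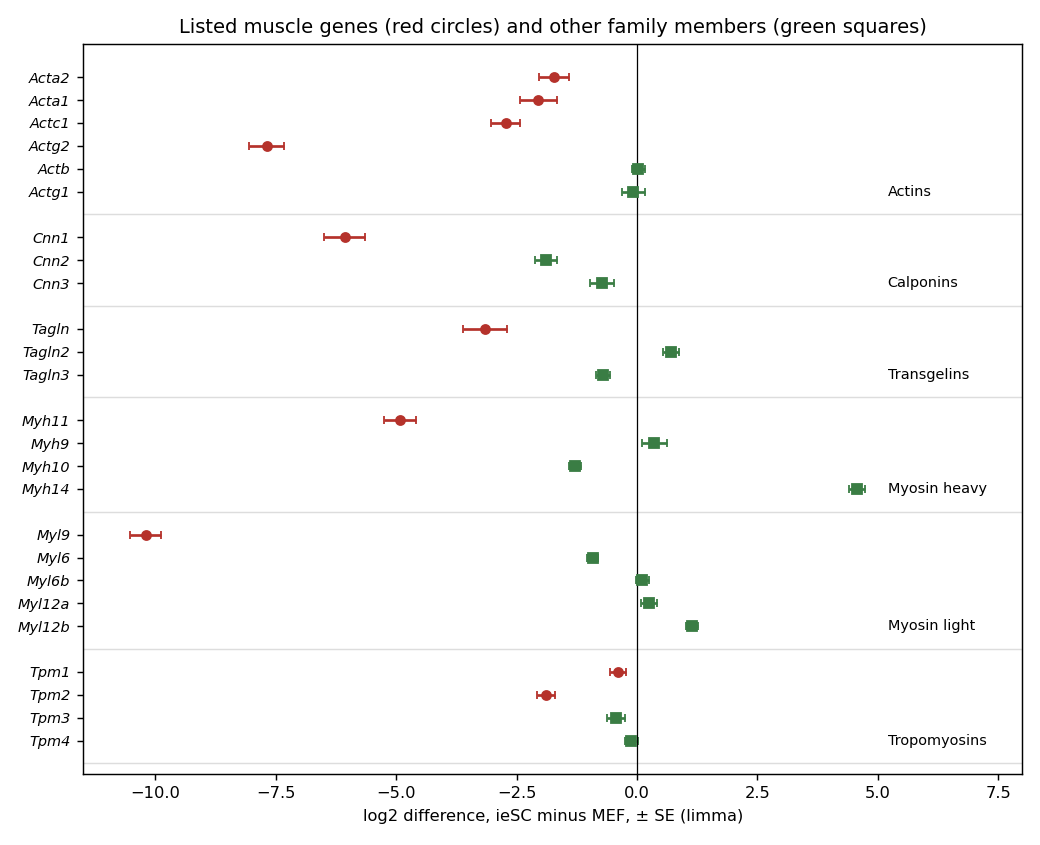
Log2 difference of ieSCs minus MEFs ± SE (horizontal axis) for the 10 muscle and smooth muscle genes (red circles) and for 15 other members of their families (green squares). Myl9 lies at -10.2 and Myl12b at 1.14, Myh11 at -4.92 and Myh14 at 4.57, and Actg2 at -7.69 with Actb at 0.03.

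Other smooth muscle genes fell in 10 of 17 members tested and rose in 1 (median -0.74), where 23.6% and 25.9% of all genes did and the median was 0.09. Of these, 3 passed the filter only through the MEF arrays, and of the other 14 genes 7 fell (median -0.66). Itga8, an integrin subunit, fell by 8.24 ± 0.35, Ppp1r14a, an inhibitor of myosin phosphatase, fell by 5.27 ± 0.39, and Mylk, the kinase that phosphorylates Myl9, fell by 2.88 ± 0.22. Desmin (Des) fell by 3.06 ± 0.68 and the actin nucleator Lmod1 fell by 3.60 ± 0.47, from a MEF level of 7.11 to the dim end. Aoc3 fell by 2.86 ± 0.25, with means of 5.31 and 8.55 in ieSCs of MEF and TTF origin. Caldesmon (Cald1) at -0.74 ± 0.29 (adjusted p = 0.0585) and smoothelin (Smtn) at 0.17 ± 0.18 did not pass. Synpo2 was the gene of this list that rose, by 0.96 ± 0.16, with 1.83 ± 0.17 in ieSCs of MEF origin and 0.10 ± 0.17 (adjusted p = 0.685) in those of TTF origin, which differed by -1.73 ± 0.14 (adjusted p = 1.92e-05).

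Among 17 regulators and targets of the SRF pathway tested, 1 rose and 6 fell (median -0.23), against 25.9% and 23.6% of all genes. Without Myocd, which passed the filter only through the MEF arrays, 5 of 16 fell. Srf itself averaged 13.08 in MEFs, and 12.72 and 12.99 in ieSCs of MEF and TTF origin (-0.23 ± 0.15, adjusted p = 0.237). Mrtfa and Mrtfb differed by -0.17 ± 0.14 and -0.26 ± 0.14 and did not pass either. Myocd, which encodes myocardin, fell by 2.65 ± 0.41 (adjusted p = 0.000527), from a dim MEF level of 6.40 to 3.95 and 3.54, both below the 40th percentile, so the floor of the arrays limits this value too. Klf4, a factor known to repress smooth muscle genes, rose by 1.31 ± 0.18 (adjusted p = 0.000231), from 13.49 in MEFs to 14.91 and 14.70 in ieSCs of MEF and TTF origin. Fhl2 and Egr1, both targets of SRF, fell over all ieSCs (-2.56 ± 0.36 and -1.70 ± 0.29). In TTF-derived ieSCs alone Egr1 did not pass against MEFs (-0.64 ± 0.32, limma adjusted p = 0.134). Between origins 5 of the 17 were higher in TTF-derived cells and 2 lower, against 16.8% and 19.2% of all genes. Fhl2 and Egr1 were among the higher, by 2.33 ± 0.32 and 2.11 ± 0.26, and Ccn2 was among the lower, at -0.95 ± 0.19.

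Markers of cell types that share these genes were measured beside them. Of 8 pericyte markers 5 fell and 1 rose, where 23.6% and 25.9% of all genes did. Those with the smallest p were Cspg4 at -5.55 ± 0.40, Rgs5 at -4.26 ± 0.32, Kcnj8 at -4.34 ± 0.39 and Abcc9 at -2.71 ± 0.27. Pdgfrb fell by 8.16 ± 0.97 and Mcam rose by 1.62 ± 0.26, while Notch3 at -0.58 ± 0.23 and Higd1b at 0.35 ± 0.27 did not pass. Rgs5 and Kcnj8 passed the filter only through the MEF arrays, and 3 of the other 6 fell. The mean log2 level over the 8 was 10.29 to 10.31 on the MEF arrays and 7.12 to 7.57 on the ieSC arrays. Of 23 genes of skeletal and heart muscle tested, 5 rose and 9 fell, against the same shares of all genes. Those with the smallest p were Tnnt1, Tnni3 and Myh6, which fell (-1.89, -2.50 and -1.97), and Tnnc1, which rose by 2.40. The others that rose were Myl7, Myl1, Myl3 and Nkx2-5 (2.01, 1.15, 0.98 and 0.47). In MEF-derived ieSCs 6 of the 23 rose and 9 fell (27.2% and 24.0% of all genes). In TTF-derived ieSCs 1 rose and 7 fell (23.3% and 21.8% of all genes). Brighter in MEFs were Tnnt2 at 12.17, Myl4 at 11.25 and Myh8 at 10.90. These fell by 6.37 ± 0.87, 0.59 ± 0.19 and 4.74 ± 0.72 and are among the 9. Myl2, also among the 9, passed the filter only through the MEF arrays, and 8 of the other 22 genes fell. The mean level over all 29 genes of that list was 6.46 to 6.52 in MEFs and 5.73 to 6.21 in ieSCs, and 9 of the 29 lay below the 40th percentile on both MEF arrays. Myod1 and Myog, the defining factors of skeletal muscle, stood at 5.77 and 5.16 in MEFs and differed by 0.23 ± 0.22 and 0.21 ± 0.25. The part of pericytes and of striated muscle cells in the falls of the 10 genes was not tested.

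The mean profile of the 10 genes over the 10 arrays, each gene scaled to its own mean and SD, was followed most closely by Tpm2 among them (Pearson r = 0.994) and least by Tpm1 (r = 0.766). Outside them the closest genes were Gpx3 (r = 0.9991), Gng8 (0.9956), Pcdh18 (0.9949), Dennd4a (0.9935) and Crabp2 (0.9933). These values are a description over arrays that share names, in which the gap between MEFs and ieSCs carries most of the variation. Gpx3 averaged 13.53 in MEFs, 6.59 in ieSCs of MEF origin and 3.99 in those of TTF origin.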

How the data were processed

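Total RNA labelled with Cy3 was hybridised to 10 Agilent arrays, 1 sample each. The deposited table holds log2 intensity for 62976 features; per the submitters' processing notes limma was used, with no version given. The columns share 1 maximum and nearly the same quartiles, as quantile-normalized values do. No source used here gives the background correction or the log base, which the range (0.288 to 19.02) puts at 2. There are no detection flags.

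Gene names came from the platform annotation, updated through RefSeq accessions (29036 features matched of 31465 named, 31511 unnamed). Features above the 40th percentile of their array (4.99 to 5.02) on at least 2 arrays were kept (42617), and the brightest kept feature by mean stood for each of 16726 genes. Limma 3.58.1 in R 4.3.3 fitted a mean per group to all 10 arrays, with the name 2 arrays share as a random block (statmod 1.5.0, consensus correlation 0.605, 7 residual degrees of freedom). Two-sided p-values were Benjamini-Hochberg adjusted over all genes, or over all kept features for counts of features. The script was tested on simulated data. Values after ± are SE. The number of arrays limits the precision (median SE 0.175 against MEFs, 0.156 between origins). Levels of different probes were not tested against each other. Where genes are called bright or dim, or a list is averaged, this describes array intensity and not amounts of RNA.

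The 10 genes and the other lists were chosen with earlier results of these data known. All 10 were to be named with every feature, besides up to 4 genes per other list by smallest p, fixed regulators and relatives, and the 5 genes closest in profile. Some further genes of these lists, such as Tnnt2 and Mcam, are named outside this rule. Of the marker lists, Sertoli, fibroblast, macrophage and epithelial genes are named without single values. Alternatives were another or no filter, averaged or independent arrays, other normalizations, mean of features, trended variance, and each array or preparation left out.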

Additional observations from a re-analysis of the deposited data

Results flagged for a closer look

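The effect against MEFs differed between the 2 origins, by the limma test of TTF-derived against MEF-derived ieSCs, for 6 of the 10 genes, where 36.0% of all genes differed in this test. The differences were -2.45 for Tagln, -2.18 for Acta1, -2.0 for Acta2, -0.60 for Tpm2, -0.55 for Tpm1 and 1.67 for Myl9, where a negative value means lower in TTF-derived cells. No array of a group of 4 stood apart by the rule used, for any of the 24 features in either origin (48 groups examined). Each group holds 2 arrays of each of 2 preparations, so the rate of about 1 in 20 for independent values does not apply. A gap between preparations can hide an odd array from this rule, and no conclusion is drawn from it. On 1 feature of Tpm1 the arrays of MEF-derived preparation 1 read 12.56 and 14.38 and were not flagged.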

How the results depend on the processing

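Over the 10 genes and all comparisons and alternatives, 855 single-gene results kept their direction and their side of the threshold, 15 lost and 13 gained a call, and 3 changed sign, none of them called: Actc1 between origins was 0.01 without array a of TTF-derived preparation 2 and 0.14 without both its arrays, and Tpm1 in MEF-derived ieSCs was 0.14 without MEF-derived preparation 2. Averaging the arrays of each name left 1 gene lower and 0 higher between origins, and 11 of 24 features lower in ieSCs (19 in the fit of all arrays), where 8 genes were lower. Counting 1 feature per gene, 9 were lower in the fit of all arrays. Higher genes between origins numbered 2 with no block for the shared name and 2 with the filter at the 60th percentile, which Actc1 does not pass. With 1 array or preparation left out, 9 to 10 genes were lower in all ieSCs, 7 to 10 in MEF-derived and 9 to 10 in TTF-derived ieSCs, and between origins 3 to 6 were lower and 1 to 2 higher. With the preparation number as a replicate block on the 8 ieSC arrays, 6 genes were lower and 1 higher between origins, Actg2 being gained (-0.84, adjusted p = 0.00131). Of these alternatives only the averaged arrays had the share of all genes called computed. The other counts therefore show how far the calls of the 10 genes moved, and not how they stand against all genes. The numbers give 2 pairs only and no label ties them, and preparation 1 minus 2 correlated at 0.296 between the origins over genes. Median centring, a second quantile normalization and a trended variance changed no call. Differences for Actc1, Myh11, Myocd, Lmod1, Rgs5 and Kcnj8 are limited by the dim end of the arrays. Others also ended at or near it, for example those for Itga8, Ppp1r14a and, in TTF-derived cells, Gpx3.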
